A study of Homo sapiens with 6 samples.

Results

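The 9 genes described here encode the kinases, adaptors and inhibitors that act first below the T-cell receptor: LCK, FYN, ZAP70, LAT, LCP2, PLCG1, MAP4K1, CSK and PTPN22. They were chosen as the rows of the deposited tables whose gene name equals one of these symbols, and each symbol matched 1 of the 60640 gene identifiers. All 9 passed the filter for testing, a mean of at least 1 FPKM (fragments scaled to transcript length and to the mapped total) over the 6 libraries, which 12652 genes passed. The rule itself uses no measured value, but the symbols were picked with earlier results of these data known.

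Polyadenylated RNA of MOLT-4 was sequenced. MOLT-4 is an established line of human T-cell acute lymphoblastic leukemia. The control cells gave 3 libraries, called wild type here, and the cells in which CRISPR-Cas was aimed at IKZF1 gave 3 more, labelled IK-KO. IKZF1 encodes IKAROS, a zinc finger protein. Cells of both groups were grown in RPMI1640 with serum and received no further agent, and no receptor stimulation is named in the labels, so the levels are those of growing leukemia cells. The edited cells and their control were bought as a line, the labels name no clone and do not say whether the replicates were separate cultures, and p-values therefore measure the spread between these libraries, which may be technical.

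The RNA of IKZF1 did not follow the label. Its level was 134, 124 and 105 FPKM in wild type against 207, 260 and 207 FPKM in the other group. The log2 change was 0.89, with an SE of 0.12 (limma, adjusted p = 0.00295). An edited gene can still be transcribed. The study's methods state that the knockout was checked by PCR and by western blot, and its supplement shows blots of IKAROS protein in knockout clones; which clone the libraries came from is not given, and these files hold no protein measurement. The second group is therefore named by its label throughout.

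The tables held 21254 to 21887 rows above 0 per library. FPKM values carry no read depth, so the depth behind each value is unknown and precision was read from the replicates and from the 95% confidence bounds deposited with each value. All 10 T-cell markers checked reached a mean of 1 FPKM, their summed level ran from 4392 to 4617 FPKM in wild type and from 5268 to 5734 FPKM in the IK-KO-labelled libraries, and most of it was TRBC2. The sum hides falls: of the 10 markers, 4 were called higher (TRBC2, CD247, CD3D and CD3G), 4 were called lower, and CD3E and TRBC1 were not called. In wild type against the IK-KO-labelled libraries, CD7 ran from 15.2 to 16.8 against 3.17 to 5.09 FPKM, CD5 from 24.1 to 26.2 against 10.2 to 13.4 FPKM and TRAC from 7.86 to 9.78 against 1.25 to 1.99 FPKM, and CD2, described further on, fell as well. Their part in the results on the 9 genes was not tested. Of the markers of other cell types, 1 of 7 B-cell markers (BLK), 0 of 7 myeloid, 0 of 5 NK-cell, 0 of 5 erythroid and 1 of 5 stromal or epithelial markers (PECAM1) reached that level. CD33, FCGR3A, NCR1, ALAS2, HBB, COL1A2 and EPCAM were at 0 in all 6 libraries. In bulk RNA, fewer cells expressing a gene and less of its RNA per cell cannot be told apart.

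When the T-cell receptor is engaged, the SRC-family kinases LCK and FYN phosphorylate the tails of the CD3 and zeta chains, and ZAP70 docks there and is activated. ZAP70 then phosphorylates the membrane adaptor LAT and the cytosolic adaptor LCP2 (also called SLP-76), which together hold PLCG1, the phospholipase that starts the calcium and RAS branches. CSK holds the SRC-family kinases inactive through their C-terminal tyrosine, the phosphatase PTPN22 removes activating phosphates from LCK, FYN and ZAP70, and MAP4K1 (also called HPK1) marks LCP2 for loss from the complex. The same machinery serves the pre-TCR of developing thymocytes.

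Of the 9 genes, 5 were called at an adjusted p under 0.05 (limma on log2(FPKM + 1)). FYN and ZAP70 rose, and the 3 of the 9 genes that restrain the pathway, CSK, PTPN22 and MAP4K1, fell. LCK, LAT, LCP2 and PLCG1 were not called. In the same fit 19.9% of all tested genes were called, 10.1% higher and 9.75% lower. The groups did not overlap for 5 of the 9 genes, and for 39.0% of all tested genes. The median log2 change of the 9 was 0.01, beside 0.02 over all tested genes. Under other settings of the fit PTPN22 kept its call in 8 of 14. With every library at its least favourable deposited bound, ZAP70, PTPN22 and MAP4K1 lost their calls.

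**Figure D1:**
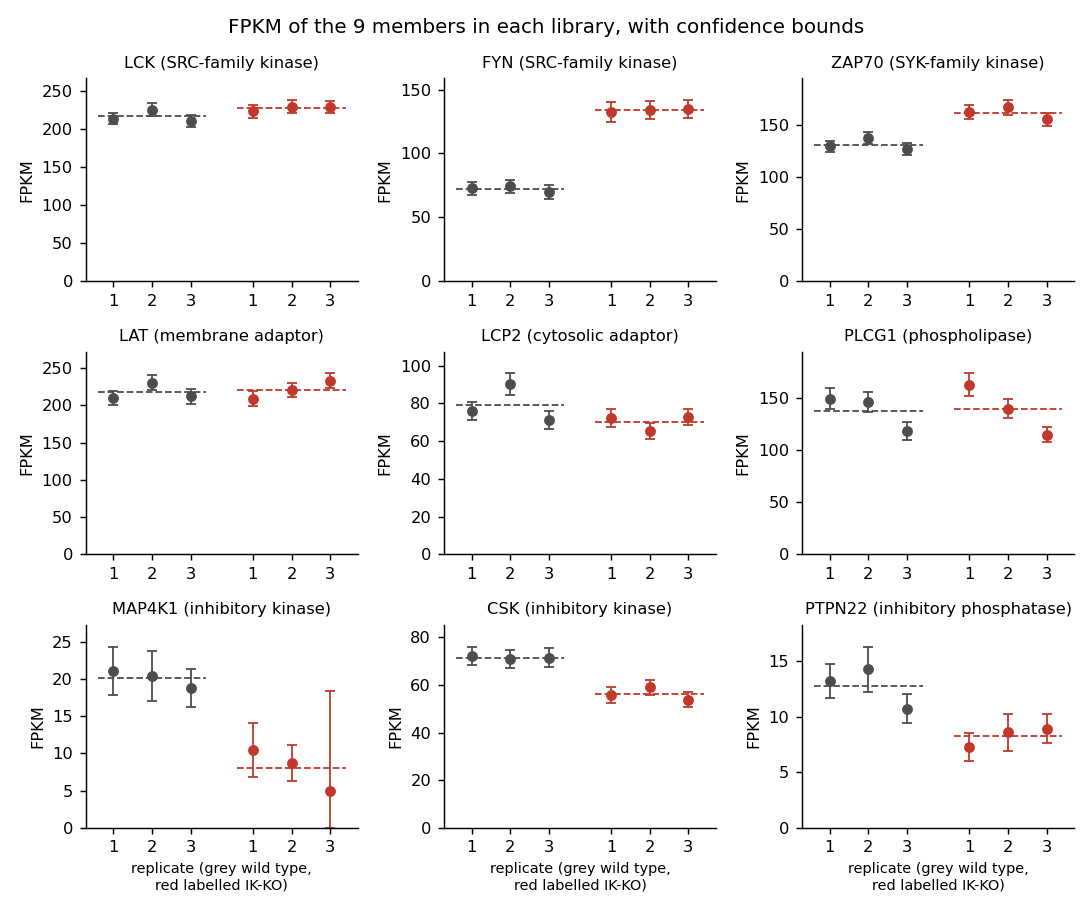
FPKM (vertical axis, from 0) of each of the 9 genes in each of the 6 libraries; points are the deposited values, bars their deposited 95% confidence bounds, dashed lines the group means, with wild type in grey and the libraries labelled IK-KO in red. FYN, ZAP70 and CSK separate beyond their bounds, while the bound of MAP4K1 in the third library labelled IK-KO runs from 0 to 18.4 FPKM.

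The reference sequence around the starts of the 5 called genes is shown, since IKAROS binds DNA and these are the genes whose RNA moved. Each run is taken from RefSeq (GRCh38.p14), 5′ to 3′ on the strand of the gene, from 250 bases before to 50 after an annotated start. Capitals mark TGGGAA or its reverse complement TTCCCA, the core of sites known for IKAROS, and TGTGGT or ACCACA, the core of sites known for RUNX factors. RefSeq lists 4 windows for FYN and 3 for ZAP70, and the windows shown for them were picked because they hold TGGGAA or TTCCCA. The other windows of both genes hold neither TGGGAA nor TTCCCA. These include the FYN windows at the 5′ end of the gene (chr6:111873403-111873702 and chr6:111873022-111873321). The FYN window shown belongs to a start inside the gene. Those of CSK and MAP4K1 also lie wholly inside the gene, whose 5′ end stands at chr15:74782057 for CSK and at chr19:38618882 for MAP4K1. FYN is shown at chr6:111759032-111759331 on the minus strand, ZAP70 at chr2:97713326-97713625 on the plus strand, CSK at chr15:74788294-74788593 on the plus strand, PTPN22 at chr1:113871663-113871962 on the minus strand and MAP4K1 at chr19:38617904-38618203 on the minus strand.
FYN: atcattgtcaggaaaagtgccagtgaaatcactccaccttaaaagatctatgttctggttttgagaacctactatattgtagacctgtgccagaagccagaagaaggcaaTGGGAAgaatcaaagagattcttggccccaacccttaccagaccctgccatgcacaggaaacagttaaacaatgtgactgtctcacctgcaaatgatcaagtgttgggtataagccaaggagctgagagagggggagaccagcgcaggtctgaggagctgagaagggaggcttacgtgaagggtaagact
ZAP70: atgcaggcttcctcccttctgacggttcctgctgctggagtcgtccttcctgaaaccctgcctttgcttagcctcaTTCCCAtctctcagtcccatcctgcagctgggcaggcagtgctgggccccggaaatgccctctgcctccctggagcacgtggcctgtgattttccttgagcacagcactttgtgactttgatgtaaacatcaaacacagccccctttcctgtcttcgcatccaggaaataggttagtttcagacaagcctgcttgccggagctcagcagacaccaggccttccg
CSK: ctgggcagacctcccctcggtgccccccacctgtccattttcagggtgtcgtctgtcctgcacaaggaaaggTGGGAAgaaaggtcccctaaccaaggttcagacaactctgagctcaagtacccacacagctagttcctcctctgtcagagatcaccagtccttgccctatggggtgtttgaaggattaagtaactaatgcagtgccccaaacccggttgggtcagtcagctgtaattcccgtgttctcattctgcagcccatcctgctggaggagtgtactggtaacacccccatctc
PTPN22: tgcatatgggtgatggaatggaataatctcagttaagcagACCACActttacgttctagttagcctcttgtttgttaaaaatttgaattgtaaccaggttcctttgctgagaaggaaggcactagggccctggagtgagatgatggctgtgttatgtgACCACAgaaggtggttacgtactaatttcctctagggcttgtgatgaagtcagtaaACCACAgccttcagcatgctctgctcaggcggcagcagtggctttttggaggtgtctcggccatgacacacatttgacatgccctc
MAP4K1: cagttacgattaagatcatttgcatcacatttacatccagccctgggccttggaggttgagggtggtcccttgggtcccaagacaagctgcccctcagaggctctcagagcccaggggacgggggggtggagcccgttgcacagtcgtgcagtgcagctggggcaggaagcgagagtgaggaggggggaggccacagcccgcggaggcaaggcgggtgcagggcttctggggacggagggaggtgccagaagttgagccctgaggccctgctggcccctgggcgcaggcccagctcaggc

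The TGGGAA core, read on both strands, was present in 24.0% of 35116 windows of this length over all genes and in 6 of the 16 windows of the 9 genes. Counted in bases from the start, it stood at -140 in this FYN window, at -174 in that of ZAP70 and at -178 in that of CSK. Windows of LCK and LAT, which were not called, held it too. The 2 windows of LAT overlap, and 1 site, at 11 in the first and at -238 in the second, was counted in both. The TGTGGT core was present in 13.1% of all windows and in 4 of the 16, with 3 copies in the window of PTPN22, of which the farthest stood at -210. The windows of MAP4K1, LCP2 and PLCG1 held neither. A match of these letters is a description of the sequence.

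FYN, a SRC-family kinase of T cells and neurons (ENSG00000010810.17, chr6:111660332-111873452, minus strand, hg38), gave the largest rise of the 9. It measured 72.5, 74.1 and 69.5 FPKM in wild type and 132, 134 and 135 FPKM in the IK-KO-labelled libraries. Every library labelled IK-KO lay far above every wild type library, and the deposited bounds of the groups did not meet. The means were 72.0 ± 2.31 and 134 ± 1.19 FPKM (SD, n = 3 each), a ratio of 1.86. On the log2(FPKM + 1) scale the change was 0.88 (SE 0.05, 95% interval 0.78 to 0.99; limma, adjusted p = 6.57e-05), and 5.70% of tested genes had a change at least this large in either direction.

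LCK, the main SRC-family kinase of T cells (ENSG00000182866.17, chr1:32251239-32286165, plus strand), measured 214, 225 and 211 FPKM in wild type and 223, 229 and 229 FPKM in the IK-KO-labelled libraries. The groups overlapped. The means were 216 ± 7.62 and 227 ± 3.58 FPKM (SD, n = 3 each). The log2 change was 0.07 with a 95% interval of -0.03 to 0.17 (limma, adjusted p = 0.327).

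The balance of the SRC-family pair thus differed between the groups. LCK exceeded FYN 2.95, 3.04 and 3.03 times in the wild type libraries and 1.68, 1.71 and 1.70 times in the IK-KO-labelled libraries. FYN made up 24.8 to 25.3% of the summed FPKM of the pair in wild type and 36.9 to 37.3% in the IK-KO-labelled libraries. The spread within each group was small beside the distance between them. LCK and FYN together made up 94.3 to 94.9% of the summed FPKM of the SRC-family genes in wild type and 96.9 to 97.2% in the IK-KO-labelled libraries.

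FYN lies on chromosome 6, where 74.5% of 655 tested genes had a higher value in the IK-KO-labelled libraries and the median log2 change was 0.21. Within 10 Mb of its start, 44 of 61 other tested genes had a higher value, 14 of the 61 were called higher and 5 were called lower, and their median was 0.18. A larger change than that of FYN, in either direction, was found for 6 of the 61. The part of this chromosome-wide shift in the rise of FYN was not tested. With the median of the 50 nearest tested genes removed in each library, the log2 change of FYN was 0.68 (limma, adjusted p = 0.000163). For the other 8 genes the median of the 50 nearest tested genes lay between -0.10 and 0.06.

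**Figure D2:**
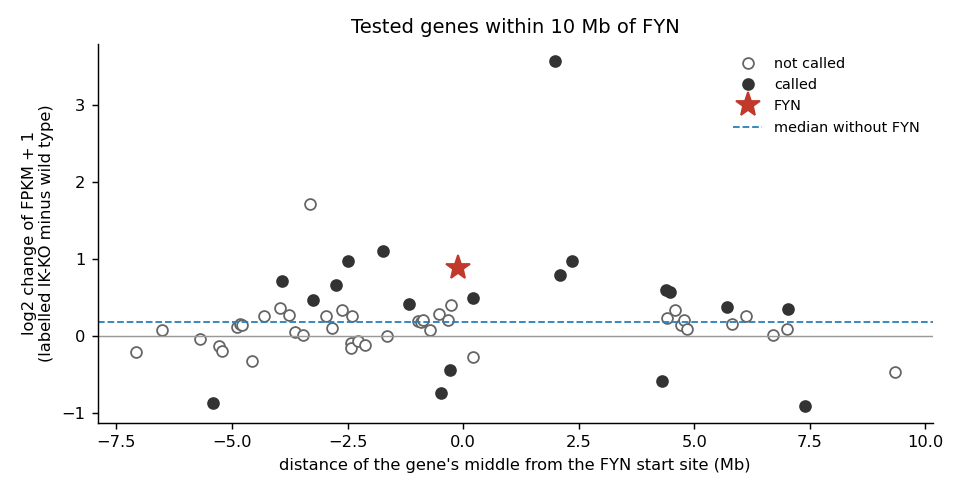
Log2 change of FPKM + 1 (labelled IK-KO minus wild type, vertical axis) of the tested genes within 10 Mb of FYN against their distance in Mb from its start; filled points were called, the star is FYN and the dashed line the median of the others. Most points lie above 0, around a median of 0.18, and the star lies at 0.88.

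CSK, the kinase that holds LCK and FYN inactive (ENSG00000103653.16, chr15:74782057-74803198, plus strand), fell. It measured 72.1, 70.8 and 71.5 FPKM in wild type and 55.6, 59.0 and 53.8 FPKM in the IK-KO-labelled libraries. The wild type libraries lay within a narrow band and all of them above the other group, with deposited bounds that did not meet. The means were 71.5 ± 0.649 and 56.1 ± 2.62 FPKM (SD, n = 3 each), a change of -21.5%. The log2 change was -0.34 (SE 0.05, 95% interval -0.47 to -0.22; limma, adjusted p = 0.00476).

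With one substrate kinase higher and CSK lower, CSK per 100 FPKM of LCK and FYN combined was 25.2, 23.7 and 25.5 in the wild type libraries and 15.7, 16.2 and 14.8 in the IK-KO-labelled libraries. The groups did not overlap, which follows from the values of CSK and FYN above and adds no evidence.

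PTPN22, a phosphatase of hematopoietic cells (ENSG00000134242.16, chr1:113813811-113871753, minus strand), measured 13.2, 14.3 and 10.7 FPKM in wild type and 7.25, 8.61 and 8.94 FPKM in the IK-KO-labelled libraries. The third wild type library was the lowest of its group and still above the highest library labelled IK-KO, but the deposited bounds of the groups met. The means were 12.8 ± 1.83 and 8.27 ± 0.897 FPKM (SD, n = 3 each), a change of -35.2%. The log2 change was -0.57 (SE 0.13, 95% interval -0.86 to -0.27; limma, adjusted p = 0.0205). This call was lost in limma when wild type replicate 1 (adjusted p = 0.0752) or 2 (0.0717), or replicate 1 (0.0663) or 2 (0.0556) of the other group, was left out. It was also lost with a replicate block (adjusted p = 0.0528) and with no filter on low values (adjusted p = 0.0712).

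MAP4K1, a kinase that dampens signalling through LCP2 (ENSG00000104814.13, chr19:38587641-38618882, minus strand), showed the largest fall of the 9. It measured 21.1, 20.5 and 18.8 FPKM in wild type and 10.4, 8.77 and 4.95 FPKM in the IK-KO-labelled libraries. All wild type libraries lay above the other group, in which the third library was the lowest. The means were 20.1 ± 1.21 and 8.05 ± 2.82 FPKM (SD, n = 3 each), 2.5-fold lower. The log2 change was -1.27 (SE 0.23, 95% interval -1.81 to -0.74; limma, adjusted p = 0.00841). In the third library labelled IK-KO the deposited bounds ran from 0 to 18.4 FPKM, a reach of 272% of the value to the upper side, against 13.6 to 34.7% in the other libraries. Without that library the log2 change was -0.998 (limma, adjusted p = 0.00383). With every library set to its least favourable bound it was -0.24 and the call was lost (limma, adjusted p = 0.344). None of the 50 nearest tested genes had as large a change, and the overlapping genes RYR1 and MAP4K1-AS1 were at 0.

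ZAP70, the kinase that docks on phosphorylated receptor chains (ENSG00000115085.13, chr2:97713560-97739862, plus strand), measured 130, 138 and 127 FPKM in wild type and 163, 167 and 156 FPKM in the IK-KO-labelled libraries. Every library labelled IK-KO lay above the highest wild type library, and the deposited bounds did not meet. The means were 131 ± 5.59 and 162 ± 5.74 FPKM (SD, n = 3 each), an increase of 23.3%. The log2 change was 0.30 (SE 0.05, 95% interval 0.18 to 0.42; limma, adjusted p = 0.00757). With every library set to its least favourable bound it was 0.18 and narrowly missed the threshold (limma, adjusted p = 0.0505). SYK, the other kinase of its family, stayed at or under 0.0286 FPKM in every library and was not tested.

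LAT, the membrane adaptor (ENSG00000213658.11, chr16:28984826-28990783, plus strand), measured 210, 230 and 212 FPKM in wild type and 209, 221 and 233 FPKM in the IK-KO-labelled libraries. The groups overlapped over nearly their whole range. The means were 218 ± 11.2 and 221 ± 12.1 FPKM (SD, n = 3 each) and the log2 change was 0.02, with a 95% interval of -0.11 to 0.16 (limma, adjusted p = 0.819).

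LCP2, the cytosolic adaptor (ENSG00000043462.12, chr5:170246233-170297818, minus strand), measured 75.9, 90.2 and 71.2 FPKM in wild type and 72.4, 65.2 and 72.7 FPKM in the IK-KO-labelled libraries. The second wild type library stood above the rest and the groups overlapped. The means were 79.1 ± 9.88 and 70.1 ± 4.26 FPKM (SD, n = 3 each) and the log2 change was -0.17, with a 95% interval of -0.39 to 0.06 (limma, adjusted p = 0.267). Without the second wild type library it was -0.07 (limma, adjusted p = 0.572).

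PLCG1, the phospholipase (ENSG00000124181.14, chr20:41136960-41196801, plus strand), measured 149, 146 and 118 FPKM in wild type and 163, 139 and 115 FPKM in the IK-KO-labelled libraries. Replicate 3 was the lowest and replicate 1 the highest in both groups, and the spread within groups was wider than for LCK, FYN and ZAP70. The means were 138 ± 17.1 and 139 ± 23.9 FPKM (SD, n = 3 each) and the log2 change was 0.01, with a 95% interval of -0.32 to 0.34 (limma, adjusted p = 0.981). That interval leaves room for changes as large as that of ZAP70 in either direction. PLCG1 overlaps ZHX3 on the opposite strand, which measured 31.7 to 86.4 FPKM, and the strand setting of the quantification was not given in the sources used here, so reads of this pair may be shared.

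**Figure D3:**
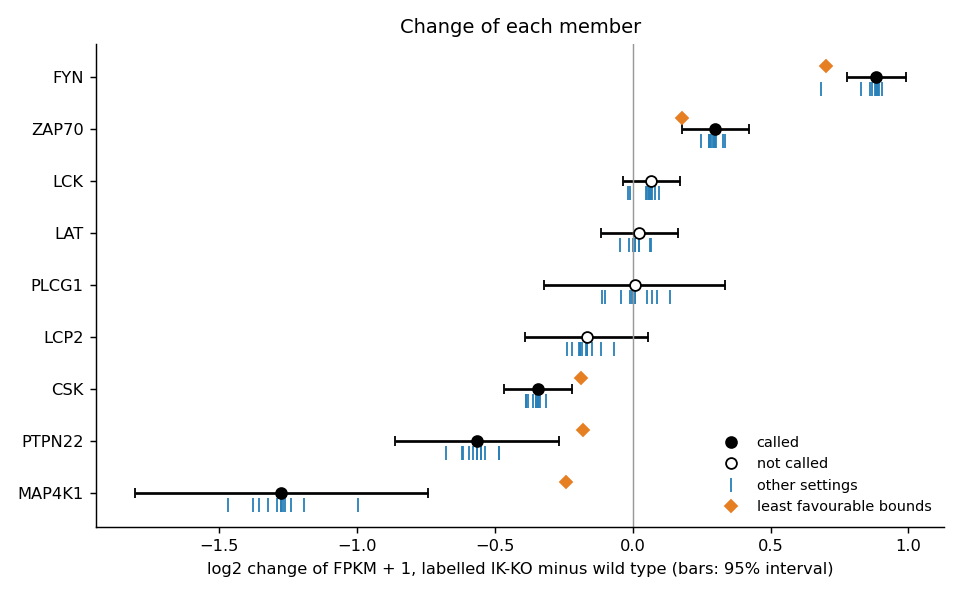
Log2 change of FPKM + 1 (labelled IK-KO minus wild type) of the 9 genes with 95% limma intervals; filled circles were called, blue ticks are the changes under the other settings and orange diamonds the called genes recomputed from the least favourable deposited bounds. FYN and ZAP70 lie to the right of 0 and CSK, PTPN22 and MAP4K1 to the left under every setting, and LCK, LAT and PLCG1 have settings on both sides.

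In levels per length, LAT and LCK led in wild type, with overlapping ranges, followed by PLCG1 and ZAP70, whose ranges overlapped, and then by LCP2, FYN and CSK, where each overlapped the next. MAP4K1 and PTPN22 were the lowest and each was separated from its neighbour. In the libraries labelled IK-KO, LCK and LAT again led, ZAP70, PLCG1 and FYN came next, where PLCG1 overlapped both and ZAP70 lay above FYN, and LCP2 and CSK followed, each separated from its neighbours. PTPN22 and MAP4K1 overlapped at the bottom. FYN thus moved from the 90.3rd to the 94.9th percentile of tested genes by group mean and MAP4K1 from the 65.5th to the 40.4th, while LCK remained at the 97.0th.

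The 3 inhibitory genes summed to 107, 106 and 101 FPKM in wild type and to 73.3, 76.4 and 67.7 FPKM in the IK-KO-labelled libraries. The other 6 summed to 851, 903 and 808 FPKM in wild type and to 962, 957 and 940 FPKM in the IK-KO-labelled libraries. Per 100 FPKM of the other 6, the inhibitory genes thus amounted to 12.5, 11.7 and 12.5 FPKM in wild type and to 7.62, 7.98 and 7.20 FPKM in the IK-KO-labelled libraries. Neither sum nor their ratio overlapped between the groups. CSK made up most of the inhibitory sum. Of the other 6, only FYN and ZAP70 were called, and FYN rose most, from a mean of 72.0 to 134 FPKM. LCK, LAT, LCP2 and PLCG1 were not called. These sums and their ratio are made from the values above and are given without a test.

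**Figure D4:**
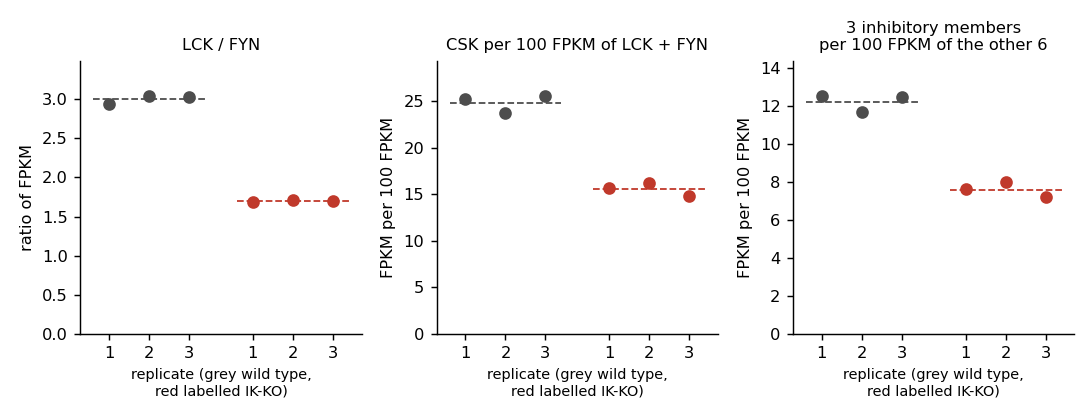
Ratios of FPKM in each of the 6 libraries (points; wild type grey, labelled IK-KO red) with group means as dashed lines, all axes from 0: LCK over FYN, CSK per 100 FPKM of LCK and FYN, and the 3 inhibitory genes per 100 FPKM of the other 6. The mean of LCK over FYN is 3.01 in wild type and 1.70 in the IK-KO-labelled libraries, and in all 3 panels the groups stand apart.

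Around the 9 genes, 5 lists of pathway genes held 119 genes, of which 102 were tested and 45 were called, 13 higher and 32 lower, or 44.1% called beside the 19.9% of all tested genes. Their median log2 change was -0.08.

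Of the receptor chains and coreceptors, 12 of 16 tested genes were called, 4 higher and 8 lower, with a median log2 change of -0.72. The largest rise was that of CD247, the zeta chain on which ZAP70 docks. It measured 65.0, 66.6 and 66.5 FPKM in wild type and 232, 262 and 243 FPKM in the IK-KO-labelled libraries (log2 change 1.88; limma, adjusted p = 7.79e-06). The largest fall was that of CD2, an adhesion receptor of T cells, from 58.9, 62.0 and 63.7 FPKM to 5.04, 5.39 and 4.98 FPKM (log2 change -3.35; limma, adjusted p = 1.41e-06). The groups stood far apart for both.

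Among other kinases of the SRC, SYK and TEC families and related kinases, 8 of 19 were tested, and 0 were called higher and 3 lower. PTK2B, a calcium-responsive relative of focal adhesion kinase, had the largest fall, from 17.6, 31.8 and 18.0 FPKM to 12.3, 8.73 and 10.9 FPKM (log2 change -0.97; limma, adjusted p = 0.0260). SRC itself was called lower too (log2 change -0.65) and is named after its value was seen. Without IK-KO replicate 2 or 3 the count was 1. LYN, BTK and SYK, named on the same ground, stayed under 1 FPKM in every library.

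Of the other adaptors, 14 of 28 tested genes were called, 4 higher and 10 lower, with a median log2 change of -0.06. GAB2, a docking protein, had the largest rise, from 1.74, 1.63 and 1.22 FPKM to 6.97, 6.14 and 6.25 FPKM (log2 change 1.56; limma, adjusted p = 0.000388). SIT1, a membrane adaptor that recruits phosphatases, had the largest fall, from 14.2, 16.6 and 19.2 FPKM to 3.63, 3.55 and 3.28 FPKM (log2 change -1.97; limma, adjusted p = 0.000113). GRAP2, which joins LAT to LCP2, was named after its values were seen and measured 125 ± 14.9 FPKM in wild type and 125 ± 9.24 FPKM in the IK-KO-labelled libraries (SD, n = 3 each).

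Of the other phosphatases, ubiquitin ligases and inhibitors, 8 of 23 tested genes were called, 2 higher and 6 lower, with a median log2 change of -0.07. PTPN6 (also called SHP-1), a phosphatase that restrains receptor signalling, had the largest rise, from 19.7, 18.6 and 17.9 FPKM to 26.9, 35.2 and 39.7 FPKM (log2 change 0.81; limma, adjusted p = 0.00681). PTPN3 had the largest fall, from 8.62, 8.19 and 10.7 FPKM to 4.81, 4.52 and 4.11 FPKM (log2 change -0.89; limma, adjusted p = 0.00300). PTPN2, another phosphatase of LCK and FYN, was the other gene called higher (log2 change 0.75) and is named after its value was seen. The inhibitors outside the 9 genes therefore moved in both directions.

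Of the branches below LAT and PLCG1, 8 of 27 genes were called, 3 higher and 5 lower, with a median log2 change of 0.03. MAP4K4, a relative of MAP4K1, had the largest called rise, from 69.2, 70.9 and 61.9 FPKM to 104, 99.1 and 94.8 FPKM (log2 change 0.56; limma, adjusted p = 0.0019). PLCG2, the relative of PLCG1 that serves B cells, had the largest fall, from 3.70, 2.90 and 2.75 FPKM to 1.07, 0.794 and 0.584 FPKM (log2 change -1.18; limma, adjusted p = 0.0039). Among the other genes of the MAP4K family, named after their values were seen, MAP4K5 was called higher as well (log2 change 0.47), MAP4K2 was not called, and MAP4K3 was not called, at 18.8 FPKM in the first library labelled IK-KO and 5.38 to 7.90 FPKM in the other 5. The family therefore held calls in both directions.

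**Figure D5:**
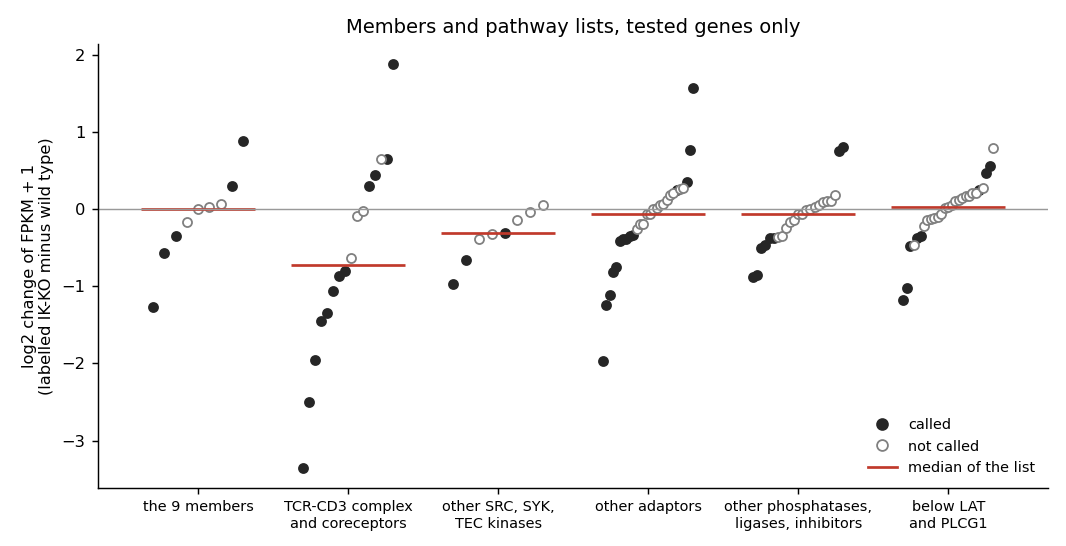
Log2 change of FPKM + 1 (labelled IK-KO minus wild type, vertical axis) of the tested genes among the 9 and in the 5 pathway lists, ordered by value within each; filled points were called and red lines are medians. The list of receptor chains and coreceptors reaches from -3.35 (CD2) to 1.88 (CD247) around a median of -0.72, a wider range than that of the 9 genes, which runs from -1.27 to 0.88.

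The tested genes outside the 9 whose centred log2(FPKM + 1) lay nearest to that of FYN over the 6 libraries were ITM2B, ADM2 and ITGB1, with root mean square differences of 0.0234, 0.0246 and 0.0356. Their log2 changes were 0.88, 0.87 and 0.93, and they lie on chromosomes 13, 22 and 10. For MAP4K1 they were AC012653.2, GPA33 and OSBPL5, with root mean square differences of 0.0559, 0.122 and 0.142 and log2 changes of -1.23, -1.32 and -1.16. In all 3 the third library labelled IK-KO was the lowest of the 6, as for MAP4K1. The genes near FYN and MAP4K1 were picked for such likeness over the same libraries, so it adds no evidence about either.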

How the data were processed

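Gene-level FPKM tables of 6 MOLT-4 libraries were used, with the deposited FPKM value and its confidence bounds per gene. The authors made them from poly(A) RNA prepared with the NEBNext Ultra II RNA kit; the submitters' processing notes name STAR 2.6.1c, Cufflinks 2.2.1, HOMER 4.10 and hg38 without their roles, and the annotation and strand setting were not given in the sources used here. Groups and replicate numbers came from the labels. For 110 gene identifiers on more than 1 row, the FPKM values and bounds of the rows were summed. Values were transformed to log2(FPKM + 1), which understates changes of low genes, and 12652 genes with a mean of at least 1 FPKM and without a failed estimate (29 genes had one) were tested with limma 3.58.1 in R 4.3.3 (two-sided, mean-variance trend, Benjamini-Hochberg adjustment over all tested genes; called at an adjusted p under 0.05). The fit was tested on simulated data. FPKM is not a count, so no count model was used.

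The named genes were the 9 genes, IKZF1, the called gene with the largest rise and the largest fall in each of 5 pathway lists, and the 3 genes nearest in pattern to FYN and to MAP4K1; others are said to be chosen after their values were seen, and single values of some list genes are not reported here. The genes and lists were chosen with earlier results of these data known. Alternatives were another pseudocount (0.1), no filter, other scalings, no mean-variance trend, a replicate block and the genes with failed estimates kept. Others were leaving out each library, removal of neighbouring genes and a 2-fold limit. The least favourable confidence bounds were added after seeing the data. Same-numbered libraries did not deviate together (correlations of 0.0669, 0.0248 and 0.00546), so the numbers were not treated as pairs.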

Additional observations from a re-analysis of the deposited data

How the results depend on the processing

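FYN, ZAP70, CSK and MAP4K1 were called with 1 direction under all 14 other fits, confidence bounds aside, with log2 changes of 0.68 to 0.90, 0.25 to 0.33, -0.39 to -0.31 and -1.47 to -0.998, and LCK, LAT, LCP2 and PLCG1 under 0 of 14. For FYN, ZAP70, CSK and MAP4K1 the largest adjusted p was 0.0026, 0.033, 0.025 and 0.0499 (limma). That of MAP4K1, with no filter on low values, barely passed. PTPN22 was called under 8 of 14 (limma, adjusted p = 0.0118 to 0.0752). Its log2 change was -0.57 with no filter (adjusted p = 0.0712) and -0.57 with a replicate block (adjusted p = 0.0528), and leaving out 1 library gave -0.68 to -0.48. The block gave 2 members higher, 2 lower, 40 list genes and 1805 genes in all, against 2, 3, 45 and 2515, and changed no other member's call. Of the uncalled genes, 3 changed sign: LCK to -0.018 with quantile normalization and -0.011 with its neighbours removed; LAT to -0.045 with quantile normalization and from -0.014 to 0.067 over the left-out libraries; PLCG1 to -0.010 with median-ratio scaling, -0.041 with quantile normalization and from -0.11 to 0.14 over the left-out libraries. With the least favourable confidence bounds, chosen after seeing the data, FYN (0.70; adjusted p = 0.000135) and CSK (-0.19; adjusted p = 0.0455) kept their calls, while ZAP70 (0.18; adjusted p = 0.0505), MAP4K1 (-0.24; adjusted p = 0.344) and PTPN22 (-0.18; adjusted p = 0.357) lost theirs. An unadjusted p under 0.05 with a 2-fold limit left 0 members higher, 1 lower (MAP4K1), 13 list genes and 447 genes in all; by unadjusted p alone 4227 genes passed. The cause of these differences was not tested. Leaving out 1 library gave 1692 to 2004 calls in all. FPKM carries no depth, so counting error could not be computed.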
